A study of Mus musculus with 137 samples.

Results

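The libraries described here are 16 single mouse embryos of the second of 2 experiments, out of 137 in the whole series: those titled DMSO 1 to 8 and those titled SR1848_NR5A2OE 1 to 8, with 8 embryos in each set. They were chosen on measured values, because the levels of GFP and of Nr5a2 in both sets go against their labels. By their labels, all 16 were B6129F1 embryos at the 2-cell stage, isolated as zygotes 5 hours after fertilization and grown in KSOM medium in wet chambers without oil. From 6 hours after fertilization the medium held 0.1% DMSO, the solvent, for the first set and 10 µM SR1848 for the second. By its label the second set also received NR5A2 mRNA at 500 ng/µl, by injection and not through the medium. The other groups used below are, in experiment 1, 19 embryos labelled DMSO and 27 labelled SR1848_NR5A2OE, and, in experiment 2, 24 labelled SR1848 alone, 32 labelled SR1848_NR5A2OE 9 to 40 and the embryos labelled DMSO 9 and 10, all with the same stage, strain and doses. The labels record no group that received another mRNA, so the inhibitor, the injection and NR5A2 cannot be told apart in any comparison of SR1848_NR5A2OE with DMSO. Each library is 1 embryo amplified from polyadenylated RNA with the SmartSeq2 method. The labels do not say which embryos share parents, so the p-values below measure the spread between embryos only.

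NR5A2 is an orphan nuclear receptor that binds DNA as a monomer and has been described as a pioneer factor of zygotic genome activation, the onset of transcription from the embryo's own genome. In the mouse the main wave of this activation falls in the 2-cell stage, while transcripts stored in the oocyte are being degraded. SR1848 is a small molecule that lowers the activity and the level of NR5A2, and injected NR5A2 mRNA is a means of putting the protein back. A group of 2-cell transcripts, ribosome production genes and many housekeeping genes are among those that the embryo begins to make at this stage.

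GFP was high in the libraries labelled DMSO and close to 0 in the libraries labelled SR1848_NR5A2OE. In embryos 1 to 8 labelled DMSO it stood at 7075, 296, 2365, 47.4, 2618, 3389, 2084 and 3645 CPM (counts scaled to a library total of 1000000), and in the 8 labelled SR1848_NR5A2OE it did not exceed 0.452 CPM. Nr5a2 transcripts followed the same split, with 5395, 409, 2232, 88.3, 2288, 3565, 2011 and 3311 CPM in embryos labelled DMSO 1 to 8 and between 81.6 and 155 CPM in the other set, so that only the embryo labelled DMSO 4 overlapped the other set. A separate whole-gene entry of Nr5a2, kept apart from the transcripts, did not split. It had 102 to 335 CPM (median 154) with the label DMSO and 101 to 157 CPM (median 134) with the label SR1848_NR5A2OE. In experiment 1 its median was 64.1 CPM in DMSO and 113 CPM in SR1848_NR5A2OE embryos. In experiment 2 it was 147 CPM at the median of SR1848_NR5A2OE 9 to 40, and 60.1 and 64.0 CPM in DMSO 9 and 10. By this entry the medians of both sets lay nearer to SR1848_NR5A2OE 9 to 40 than to DMSO 9 and 10. Elsewhere the labels and the level of GFP went together at the median: GFP was 2991 CPM in SR1848_NR5A2OE embryos and 0.200 CPM in DMSO embryos of experiment 1, and 3448 CPM in SR1848_NR5A2OE 9 to 40. Single embryos departed from this. GFP was below 40 CPM in 9 of 27 SR1848_NR5A2OE embryos of experiment 1 and in 5 of 32 of SR1848_NR5A2OE 9 to 40. The highest DMSO embryo of experiment 1, a library with few counts and few genes, had 317 CPM. Since the levels of GFP and of Nr5a2 chose the 16 libraries, they are given as a description, without a test. No outside record tells whether labels or libraries were exchanged, so the sets are called here by their labels, and each direction below is the library labelled SR1848_NR5A2OE relative to the library labelled DMSO. Sets singled out by 2 transcripts can be expected to differ in others, so the tests of other genes describe the difference between these libraries and are no test of a treatment.

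Total counts were 2803691 to 5201027 in the set labelled DMSO and 4389901 to 7828827 in the set labelled SR1848_NR5A2OE, and none of the 16 was among the 7 libraries of the series with few counts or few genes. Transcripts that define a 2-cell embryo and the oocyte were present in both sets: Zscan4d was counted in 7 of 8 and 8 of 8 embryos, and the oocyte gene Nlrp5 in all 16, at medians of 477 CPM (DMSO) and 238 CPM (SR1848_NR5A2OE). Since each library holds a whole embryo, fewer cells with a transcript and less RNA of it per cell cannot be told apart.

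The 2 sets differed across much of the transcriptome. With edgeR's quasi-likelihood test and Benjamini-Hochberg adjustment at 0.05, 3906 of 11827 genes tested (33%) were higher and 3934 (33.3%) lower with the label SR1848_NR5A2OE. For 3632 genes (30.7%) every embryo of one set lay above every embryo of the other: 2488 were higher in all 8 libraries labelled SR1848_NR5A2OE and 1144 were higher in all 8 labelled DMSO. Of the 59 genes named by rule below, 50 did not overlap, but most were picked for large or low-p differences between these sets. Most tested genes of ribosome production, the proteasome, splicing and purine, serine and folate metabolism were higher with the label SR1848_NR5A2OE, and most stored maternal transcripts and mitochondrial mRNAs were lower. The balance of directions depends on the reference: when libraries were scaled so that the maternal list stayed level, 6579 genes were higher and 932 lower, because that scaling moves the median log2 difference of all genes from -0.02 to 1.29.

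The genes highest with the label SR1848_NR5A2OE were near zero in the other set. Gins3, a subunit of the replicative helicase complex (GRCm38 chr8:95633453-95645060), ranged from 0 through a median of 1.42 to 3.61 CPM in the libraries labelled DMSO and from 150 through 196 to 307 CPM in those labelled SR1848_NR5A2OE. The groups did not overlap, and the log2 fold change was 7.04 ± 0.59 (SE, n = 8 and 8; edgeR quasi-likelihood adjusted p = 5.7e-08). Timd2, a member of the TIM family of cell surface receptors (chr11:46668960-46707061), ranged from 0.404 (median 2.16) to 37.5 CPM with the label DMSO and from 691 (median 1010) to 1184 CPM with the other, a log2 fold change of 6.78 ± 0.80 (SE). Btbd18, a regulator of transcript elongation known from the germline, had 0.248 to 52.7 CPM (median 1.98) against 567 to 754 (median 688). For both genes the highest embryo of the set labelled DMSO was number 4, the embryo with the least GFP and Nr5a2 of the 8.

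The rest of this group covered several cell functions. Sapcd2, a regulator of spindle orientation, rose by 6.28 on the log2 scale, Stmn3, a microtubule-destabilizing protein, by 6.06, and Kif3c, a kinesin motor, by 5.82. Them4, a thioesterase, rose by 6.01, and the membrane protein gene Tmem185b by 5.88. Riox2, a ribosomal oxygenase, rose by 5.79, Tsr2, a ribosome assembly chaperone, by 5.71, and Npl, which cleaves sialic acid, by 5.68. None of the genes named in this paragraph and the one before it overlapped between the sets. They were picked as the largest differences, and 30.7% of all genes tested did not overlap.

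Hist2h2be, an H2B histone gene (chr3:96221119-96223738), fell most by the fit, and it followed GFP. Its level in embryos labelled DMSO 1 to 8 was 2767, 85.4, 940, 20.2, 1085, 1369, 849 and 1579 CPM, and in the set labelled SR1848_NR5A2OE 6 embryos had no count and 2 had a single count each. The ratio of Hist2h2be to GFP was between 0.289 and 0.433 (median 0.406) in the 8 embryos labelled DMSO. In the 27 embryos labelled SR1848_NR5A2OE 9 to 40 with at least 40 CPM of GFP its median was 0.403 in a range of 0 to 0.497, and in 18 such embryos of experiment 1 it was 0.368. Both DMSO embryos of experiment 1 with that much GFP had a ratio of 0, but both are low libraries, with 100883 and 335139 counts. The embryo labelled SR1848_NR5A2OE 40, a low library of 176223 counts with 62.4 CPM of GFP, also had no count of Hist2h2be. Because Hist2h2be followed GFP within the set, its difference is a description only. Whether its reads come from the injected RNA was not tested.

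Other genes lower with the label SR1848_NR5A2OE included developmental regulators. Hes6, a basic helix-loop-helix repressor, ranged from 23.9 (median 80.2) to 211 CPM with the label DMSO and from 0 (median 3.39) to 5.52 CPM with the label SR1848_NR5A2OE, a log2 fold change of -5.20 ± 0.57 (SE; edgeR adjusted p = 6.6e-07). Msx1, a homeobox factor, had 21.9 to 111 CPM (median 63.6) against 0 to 8.17 (median 1.81), and Nr2e1, an orphan nuclear receptor, 10.9 to 115 CPM (median 72.2) against 0.410 to 9.10 (median 2.85). These 3 genes did not overlap between the sets, as was so for 30.7% of all genes tested. Hes1, a target of Notch signalling, fell by 4.32 on the log2 scale, but its sets overlapped, with 11.2 to 141 CPM against 0 to 25.0.

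Stat4, a signal transducer of cytokine receptors, fell by 4.21 on the log2 scale, Slamf1, a lymphocyte surface receptor, by 4.30, and Samd10 by 4.77, with no overlap. Klhl41, a muscle kelch protein, fell by 4.91, and Car9, a carbonic anhydrase, by 4.29; in both the sets overlapped. Pkd2l2, a polycystin-family channel gene, was by far the most abundant of these genes, at 683 to 5400 CPM (median 4906) against 84.1 to 442 CPM (median 277), and fell by 4.13. Dusp6, a phosphatase of ERK, fell by 3.77, and Trip13, an AAA ATPase that acts on HORMA domain proteins, rose by 4.66.

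**Figure D1:**
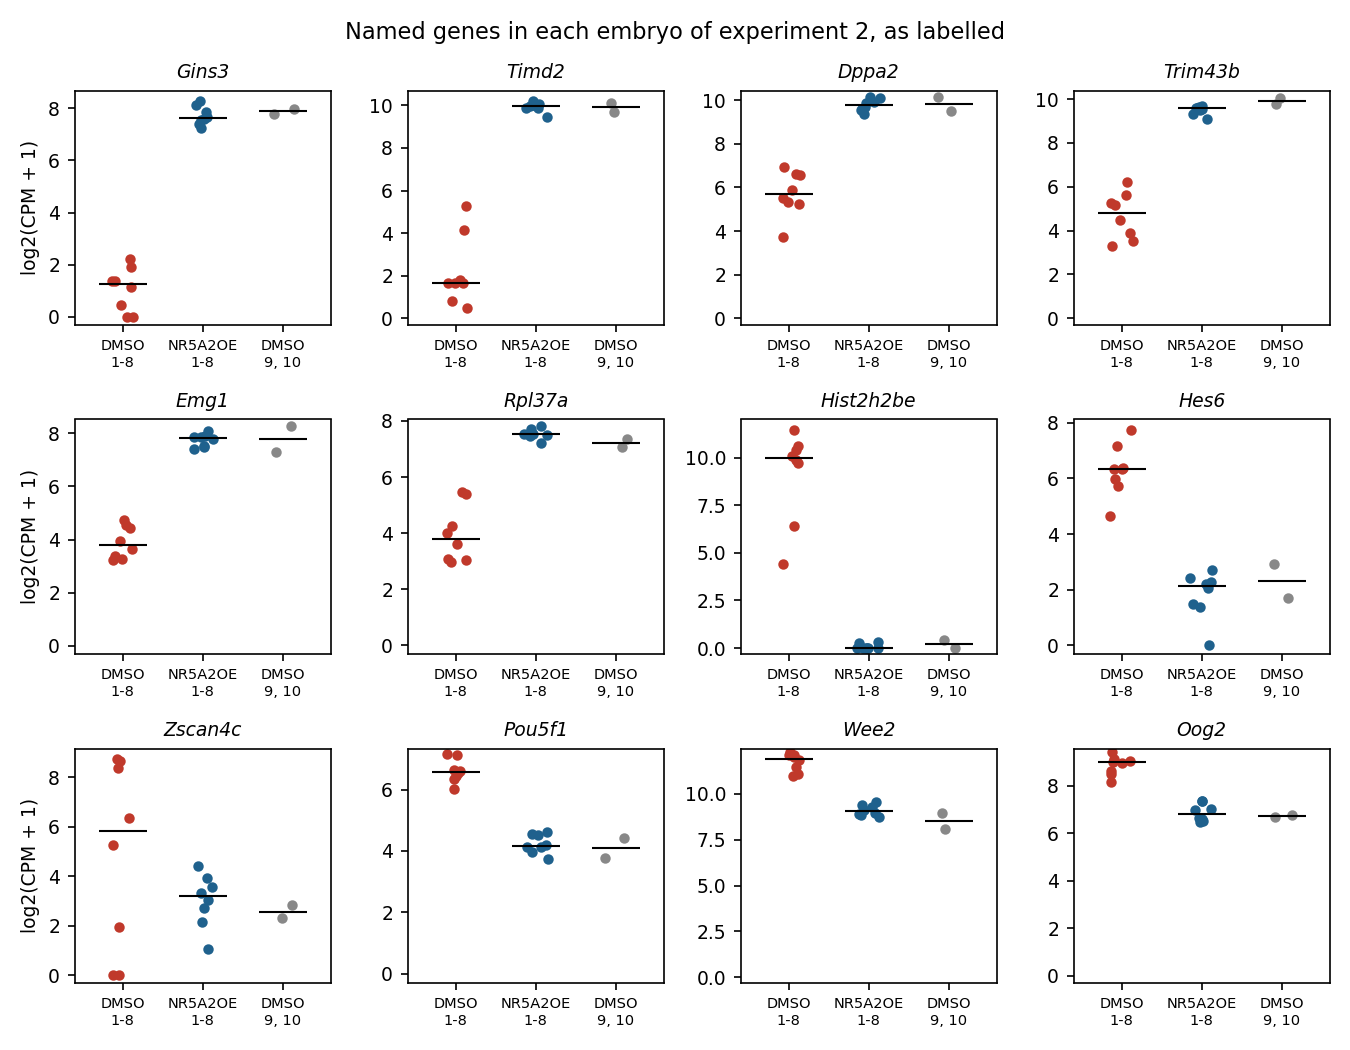
Levels of 12 named genes as log2(CPM + 1), 1 point per embryo of experiment 2, with a line at the median: red, labelled DMSO 1 to 8; blue, labelled SR1848_NR5A2OE 1 to 8; grey, labelled DMSO 9 and 10. In the panel of Gins3 the red points reach no more than 3.61 CPM and the blue ones no less than 150; Zscan4c is the panel in which red and blue overlap, and the grey points lie with the blue ones.

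Promoters of the changed genes were searched for the extended monomer element bound by NR5A2, TCAAGGNCA, or its reverse complement TGNCCTTGA, on both strands, in the 250 bases before and 50 bases after each gene start (RefSeq, GRCm38.p6). It was in 503 of 27025 promoters (1.86%) and in 119 of 8884 promoters of tested genes (1.34%). Among genes higher with the label SR1848_NR5A2OE it was in 42 of 3003 (1.40%), among those lower in 42 of 2942 (1.43%), and among 44 named genes with a promoter entry in 0. The shares of called genes were thus close to the share of tested genes. A match is only a match of letters, and its absence from these windows says nothing about the receptor. The windows below are those of the 2 most raised and 2 most lowered genes with a match, chosen after their values were seen, on the strand of the gene with the match in capitals.
Elovl6 (chr3:129532153-129532251, plus strand): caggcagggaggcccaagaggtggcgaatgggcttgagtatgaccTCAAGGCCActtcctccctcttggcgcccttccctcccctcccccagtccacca
Bhmt (chr13:93637780-93637878, minus strand): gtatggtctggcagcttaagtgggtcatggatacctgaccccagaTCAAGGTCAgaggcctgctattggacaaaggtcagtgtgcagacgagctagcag
Gramd1c (chr16:44042090-44042188, minus strand): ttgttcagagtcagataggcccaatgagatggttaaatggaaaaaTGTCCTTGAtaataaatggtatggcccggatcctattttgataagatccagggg
Ppip5k1 (chr2:121351074-121351172, minus strand): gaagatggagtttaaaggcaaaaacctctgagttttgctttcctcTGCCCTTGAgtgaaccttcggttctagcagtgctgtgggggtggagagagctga

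The match begins 188 bases before the start of Elovl6, an elongase of long-chain fatty acids, which had 0 to 15.2 CPM (median 2.88) with the label DMSO and 86.2 to 343 (median 242) with the label SR1848_NR5A2OE. In Bhmt, which makes methionine from homocysteine with betaine, it begins 75 bases before the start, and the levels were 0.746 to 5.66 CPM (median 2.22) against 48.3 to 189 (median 96.6). Gramd1c, a sterol transfer protein gene with the reverse complement 135 bases before its start, had 10.4 to 94.0 CPM (median 40.3) against 0 to 13.3 (median 4.27). Ppip5k1, an inositol pyrophosphate kinase gene with the reverse complement 114 bases before its start, had 81.0 to 310 CPM (median 123) against 15.1 to 34.8 (median 19.5). The sets overlapped in Gramd1c only, while 30.7% of all genes tested did not overlap.

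Transcripts typical of the 2-cell embryo did not move as a block. Of 54 tested, 20 were higher and 15 lower with the label SR1848_NR5A2OE, at a median log2 fold change of 0.29 against -0.02 over all genes tested. With the maternal list held level, 28 were higher and 3 lower, beside 6579 and 932 of all 11827 genes. Trim43b had 8.70 to 73.6 CPM (median 27.9) with the label DMSO and 535 to 827 (median 761) with the label SR1848_NR5A2OE. Dppa2, which with Dppa4 activates early embryonic genes, had 12.1 to 121 CPM (median 51.8) against 655 to 1114 (median 879). Neither gene overlapped between the sets, but both were picked for the lowest p of the list, and 30.7% of all genes tested did not overlap.

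Zscan4c, a marker of genome activation, went the other way and was uneven within the set labelled DMSO. Its levels in embryos labelled DMSO 1 to 8 were 0, 328, 423, 80.4, 0, 37.8, 407 and 2.88 CPM, against 1.11 to 20.3 (median 8.19) in the other set. The log2 fold change was -4.42 ± 1.21 (SE; edgeR adjusted p = 0.0040), and the sets overlapped. Left out of the set labelled DMSO, embryos 2 and 4, with the least GFP, changed the count of the 2-cell list to 30 higher and 8 lower, beside 4562 higher and 4103 lower of 12563 genes tested in that fit. Together the 2-cell list took 0.0926 to 0.987% of counts (median 0.234) with the label DMSO and 0.790 to 1.05% (median 0.911) with the label SR1848_NR5A2OE; the highest share of the first set, 0.987%, was that of embryo 2.

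Stored maternal transcripts were lower with the label SR1848_NR5A2OE. Of 74 tested, 58 were lower and 5 higher, at a median log2 fold change of -1.06, although on a scale that holds this list level 8 were lower and 24 higher. Of all 11827 genes tested, 33.3% were lower and 33% higher, or 932 and 6579 genes on that scale. As a share of all counts the list took 4.09 to 9.78% (median 5.89) in libraries labelled DMSO and 2.39 to 3.30% (median 2.67) in the others, with no overlap. Oog2, an oocyte-specific leucine-rich repeat gene, had 280 to 683 CPM (median 506) against 88.4 to 161 (median 111), and its relative Oog4 had 53.6 to 113 (median 90.3) against 10.5 to 25.9 (median 16.3). As these are members of a multigene family, counts can be shared between near-identical copies. Dppa3, a maternal factor that guards DNA methylation and is also made by the embryo, went the opposite way, at 230 to 1696 CPM (median 411) against 2315 to 3307 (median 2886).

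Lineage factors were mixed: of 24 tested, 11 were higher and 8 lower with the label SR1848_NR5A2OE, or 15 and 6 with the maternal list held level. Pou5f1, the pluripotency factor OCT4, had 63.1 to 143 CPM (median 93.9) with the label DMSO and 12.3 to 23.5 (median 16.9) with the label SR1848_NR5A2OE, with no overlap and a log2 fold change of -2.71 ± 0.23 (SE; edgeR adjusted p = 7e-08). Of 19 nuclear receptors other than Nr5a2, 3 were higher and 6 lower, but with the maternal list held level 9 were higher and 3 lower. Both lists stand beside 33% higher and 33.3% lower over all 11827 genes tested. With the maternal list held level, 6579 of all genes were higher and 932 lower. Neither list was tested against these shares. Rora, a receptor of the circadian clock and lipid metabolism, had 28.8 to 98.2 CPM (median 54.3) against 3.89 to 17.7 (median 10.9), whereas Rarg, a retinoic acid receptor, had 0 to 4.09 (median 0.574) against 17.2 to 54.1 (median 24.9).

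Genes for making ribosomes and ribosomal proteins were higher with the label SR1848_NR5A2OE in most cases. Of 72 ribosome biogenesis genes, 66 were higher and 1 lower, at a median log2 fold change of 2.57. With the maternal list held level, 70 were higher and 0 lower. The shares over all 11827 genes tested were 33% higher and 33.3% lower, or 6579 and 932 genes with the maternal list held level. Emg1, a methyltransferase of the small ribosomal subunit, had 8.40 to 25.5 CPM (median 13.0) with the label DMSO and 170 to 269 (median 226) with the label SR1848_NR5A2OE. Imp4, a component of the small subunit processome, had 26.3 to 84.7 CPM (median 39.3) against 287 to 467 (median 379). Neither overlapped between the sets, but both were picked for the lowest p of the list, and 30.7% of all genes tested did not overlap. Of 81 cytosolic ribosomal protein genes, 63 were higher and 0 lower by edgeR's quasi-likelihood test, with Rpl37a at 6.79 to 43.6 CPM (median 13.1) against 147 to 223 (median 184) and Rpl30 at 1.73 to 28.6 (median 7.33) against 65.8 to 147 (median 80.4). With the maternal list held level, 80 of the 81 were higher and 0 lower. Ribosomal protein genes have many processed pseudogenes, so their levels depend on how reads were shared between copies.

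Protein turnover and RNA processing genes went the same way. Of 38 proteasome genes 30 were higher and 1 lower, and Psma3, a core subunit, had 17.4 to 100 CPM (median 31.5) against 225 to 310 (median 285). Psmb2, another core subunit, stood at 12.6 to 70.8 CPM (median 17.1) against 153 to 215 (median 202). Of 52 spliceosome and SR protein genes 42 were higher and 2 lower. With the maternal list held level the counts were 36 and 0 for the proteasome and 51 and 0 for splicing. Beside these stand 33% higher and 33.3% lower of all 11827 genes tested, or 6579 and 932 genes with that list held level. Lsm8, of the U6 snRNP ring, had 2.97 to 10.8 CPM (median 4.09) against 69.5 to 136 (median 105), and Srsf6, a splicing regulator, 5.04 to 16.4 (median 13.9) against 83.7 to 207 (median 155). None of these 4 genes overlapped between the sets. They were picked for the lowest p of each list, and 30.7% of all genes tested did not overlap.

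Metabolic genes were higher in most cases. As a reference, 33% of all 11827 genes tested were higher and 33.3% lower, or 6579 and 932 genes with the maternal list held level. On that second scale the purine, serine and folate list had 27 higher and 0 lower. The oxidative phosphorylation list had 45 and 0. Of 30 genes of purine, serine and folate metabolism 20 were higher and 3 lower with the label SR1848_NR5A2OE: Paics, a purine synthesis enzyme, had 25.8 to 66.4 CPM (median 37.5) against 195 to 323 (median 246). Mthfd2, a mitochondrial folate enzyme, was among the 3, at 310 to 492 CPM (median 368) against 120 to 191 (median 137), and it fell by 1.61 on the log2 scale but by only 0.29, short of the threshold, with the maternal list held level. Of 50 nuclear genes of oxidative phosphorylation 29 were higher and 3 lower; Cox7c had 0 to 4.57 CPM (median 1.05) against 15.5 to 72.2 (median 56.4) and Ndufa2 had 7.92 to 33.7 (median 15.1) against 63.2 to 94.2 (median 81.0). All 13 mitochondrially encoded mRNAs were lower on the same scale, at a median log2 fold change of -1.14, and none passed the test in either direction with the maternal list held level. They took 6.04 to 21.1% of counts (median 13.2) in the set labelled DMSO and 5.34 to 9.22% (median 7.58) in the other, and the sets overlapped.

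Over all 11827 genes tested, 33% were higher and 33.3% lower, or 6579 and 932 genes with the maternal list held level. Of 51 cell cycle and replication genes 23 were higher and 12 lower, or 37 and 2 with the maternal list held level. Among those lower was Wee2, the oocyte kinase that holds CDK1 inactive, at 2002 to 4938 CPM (median 3890) with the label DMSO against 420 to 760 (median 528). Of 15 replication-dependent histone genes 13 were lower and 0 higher by edgeR's quasi-likelihood test, and 5 were lower with the maternal list held level; the list includes Hist2h2be. Hist1h4c had 7.71 to 26.4 CPM (median 19.2) against 1.02 to 4.23 (median 2.07), with no overlap. These mRNAs mostly lack a poly(A) tail, and the libraries were primed with oligo-dT.

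Stress and immune lists had calls in both directions, in shares that depended on the scaling. Over all 11827 genes tested, 33% were higher and 33.3% lower. With the maternal list held level, 6579 of them were higher and 932 lower. Without embryos labelled DMSO 2 and 4, 4562 of 12563 genes were higher and 4103 lower. No list was tested against these shares. Of 34 heat shock and unfolded protein response genes 15 were higher and 8 lower, 25 and 3 with the maternal list held level, and 20 and 5 without embryos labelled DMSO 2 and 4. Examples were Dnajb11, an endoplasmic reticulum chaperone partner, at a log2 fold change of 2.77, and Hsf1, the heat shock transcription factor, at -1.96. Of 20 p53 targets 5 were higher and 5 lower, 10 and 2 with the maternal list held level: Ei24 rose by 3.35 and Rrm2b, a ribonucleotide reductase subunit, fell by 2.01. Of 19 interferon and RNA sensing genes 1 was higher (Stat2, by 2.22) and 6 were lower, whereas with the maternal list held level 7 were higher and 0 lower. Mx1, an interferon-induced GTPase, had 4.31 to 12.2 CPM (median 10.1) against 3.21 to 5.13 (median 3.62).

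**Figure D2:**
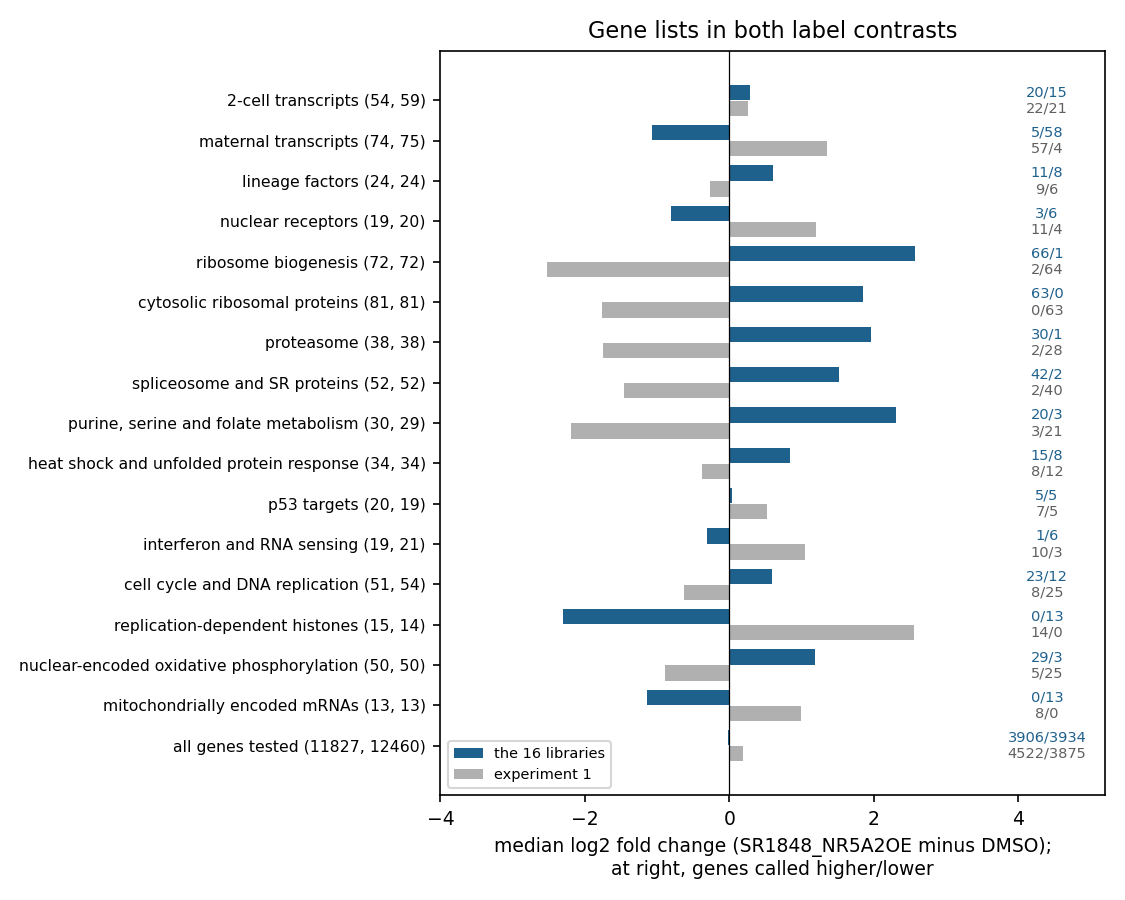
Median log2 fold change (SR1848_NR5A2OE minus DMSO) of 16 gene lists and of all genes tested in the 16 libraries (blue) and in experiment 1 (grey), with the number of genes tested in each in brackets and the numbers called higher and lower at right. Ribosome biogenesis stands at 2.57 in the 16 and at -2.52 in experiment 1; the 2-cell transcripts and p53 targets are the lists whose median is above 0 in both.

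Summed markers of cumulus and sperm cells differed between the sets without overlap, and those of blood and epithelium overlapped. The 18 cumulus and granulosa markers summed to 24.1 to 68.8 CPM with the label DMSO and 69.0 to 130 CPM (median 82.4) with the label SR1848_NR5A2OE, with Fshr at 0 in both and Amh, Inha and Ptx3 at 0 in the second. Much of the second sum was Amhr2, at 27.4 to 89.8 CPM (median 48.6) against 0 to 33.6 CPM (median 6.29) with the label DMSO. Amhr2 itself overlapped between the sets. The 14 spermatid markers summed to 392.1 to 601 CPM (median 464) against 112 to 235 CPM (median 180), nearly all of it Odf2, at 380 to 596 against 88.9 to 220 CPM; Smcp was at 0 in both sets. The 11 blood and epithelium markers summed to 23.6 to 344 CPM (median 160) against 127 to 247 CPM (median 189), with Hbb-bs and Hbb-bt at 0 in both. Few of these genes could be tested: Amhr2 rose by 2.04, Ldhc by 2.83 and Epcam by 1.87, while Odf2 fell by 1.82 and Hba-a2 by 3.90 on the log2 scale. The part of such cells in the results above was not tested.

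The same label contrast in experiment 1 ran the other way. There 4522 of 12460 genes (36.3%) were higher and 3875 (31.1%) lower with the label SR1848_NR5A2OE; with the maternal list held level the counts were 1035 and 7251. No library is in both contrasts. Of 7859 genes called in experiment 1 and also tested in the 16, 7803 (99.3%, Wilson 95% interval 99.1 to 99.5%) had the opposite sign in the 16, and 6781 of them were also called there, which is 86.3% of the calls of experiment 1 and 87.5% of the calls of the 16 among the 11583 genes tested in both. The interval treats genes as independent, which they are not. Across those 11583 genes the log2 fold changes of the contrasts had a Pearson r of -0.946 and a Spearman rho of -0.948, given as a description over genes that share libraries.

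The sizes of the changes were also similar on the scale used here. The slope of the 16 on experiment 1 was -0.957, or -0.766 with the maternal list held level, and the median absolute log2 fold change was 1.42 in the 16 and 1.43 in experiment 1. A test of the difference between the contrasts (edgeR quasi-likelihood, interaction) called 10582 of 15558 genes (68%). Over all 11583 genes tested in both contrasts, called or not, 10685 (92.2%) had opposite signs.

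By gene, Gins3 had a log2 fold change of 7.04 in the 16 and -6.71 in experiment 1, Timd2 6.78 and -6.92, Hes6 -5.20 and 5.14, and Pou5f1 -2.71 and 2.52. All 59 named genes had opposite signs in the contrasts, and 58 passed the test in experiment 1. Oog4 was the exception, with a log2 fold change of 0.83 there (edgeR adjusted p = 0.12). The named genes were picked for large or low-p differences, some of them in experiment 1 itself, so these counts are a description and no test. Over all genes the shares with opposite signs were 99.3% of those called in experiment 1 and 92.2% of those tested in both. Ribosome biogenesis genes were 66 higher and 1 lower in the 16 and 2 higher and 64 lower in experiment 1, and maternal transcripts were 5 higher and 58 lower against 57 higher and 4 lower. All genes tested were 33% higher and 33.3% lower in the 16, and 36.3% and 31.1% in experiment 1. The 2-cell list had 20 higher and 15 lower in the 16 and 22 higher and 21 lower in experiment 1, and 53 of the 54 tested in both had opposite signs.

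Few genes broke the pattern. Among those called in both contrasts 6 had the same sign: Gm19220, Ece1, Lgi1, Tspan13 and Neo1 were lower and Fastkd2 was higher with the label SR1848_NR5A2OE. Ece1, an endothelin-converting enzyme, had log2 fold changes of -1.81 and -1.64, and Fastkd2, a mitochondrial RNA-binding protein gene, 1.35 and 2.02. When the low libraries of experiment 1 were left out, 0 genes were called in both with the same sign, by the same edgeR test.

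**Figure D3:**
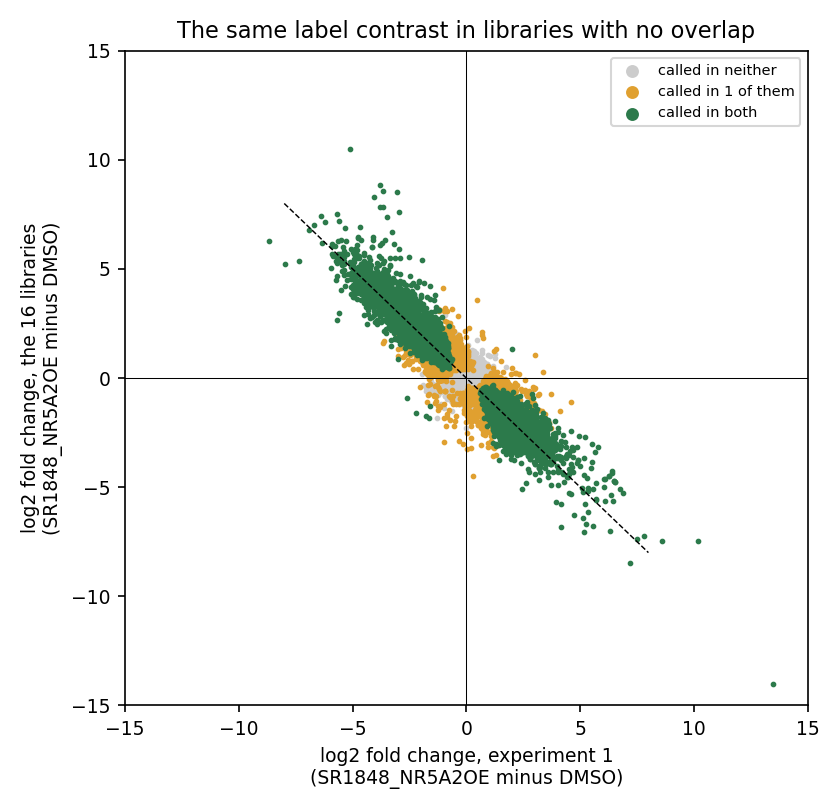
Log2 fold change of the label SR1848_NR5A2OE relative to DMSO in experiment 1 (x axis) and in the 16 libraries (y axis), 1 point per gene tested in both (11583), coloured by whether the gene passed an adjusted p of 0.05 in both, 1 or neither contrast; the dashed line marks equal size and opposite sign. The points follow the dashed line (Pearson r -0.946), with Hist2h2be alone at the lower right.

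The embryos were also placed 1 by 1 by a score, the mean log2 CPM of the 4522 genes higher in experiment 1 minus that of the 3875 lower genes, each gene taken relative to the midpoint of the experiment 1 groups. Since experiment 1 chose the genes, its own scores are only a reference. Embryos labelled DMSO 1 to 8 scored 2.72, 1.41, 2.74, 0.44, 2.82, 2.47, 2.76 and 2.81, and those labelled SR1848_NR5A2OE 1 to 8 scored between -2.53 and -2.01 (median -2.19). The first values lie around the median of 2.51 of the embryos labelled SR1848_NR5A2OE in experiment 1, and the second around the median of -2.40 of its DMSO embryos. Embryos labelled DMSO 2 and 4, with the lowest scores of their set, also had the least GFP and Nr5a2. The score was 2.46 at the median of the embryos labelled SR1848 alone in experiment 2, so it does not separate inhibited from injected embryos.

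**Figure D4:**
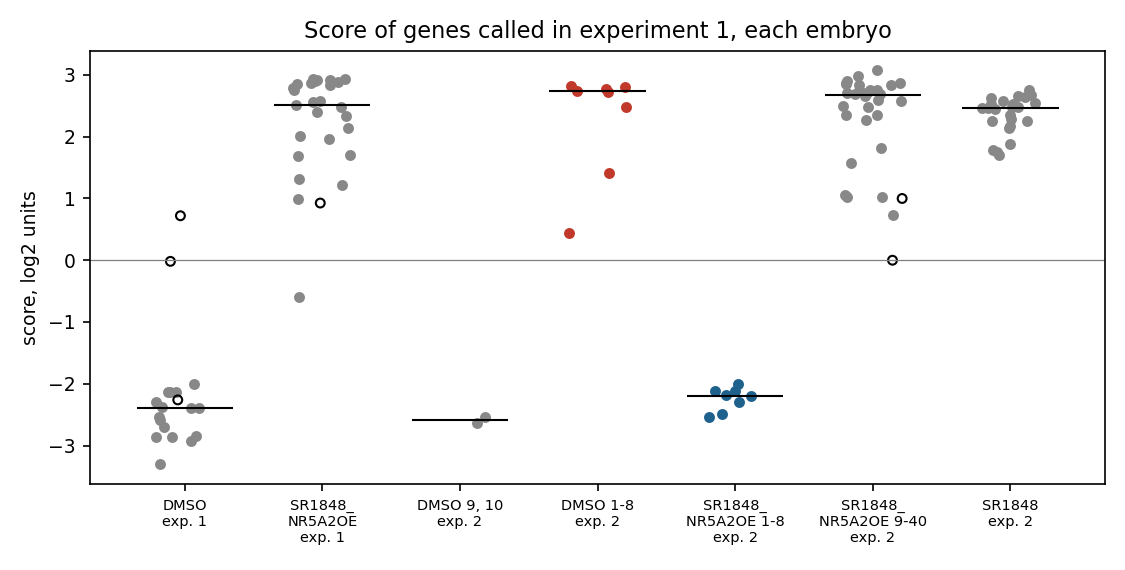
Score of each embryo in log2 units (genes higher minus genes lower in experiment 1), 1 point per embryo, with a line at each group's median and open circles for low libraries. The red points (labelled DMSO 1 to 8) lie between 0.44 and 2.82 and the blue points (labelled SR1848_NR5A2OE 1 to 8) between -2.53 and -2.01.

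Within experiment 2, each set had the fewest calls against the group that carries the other set's label, although the groups differ in size. In a fit of all its groups (19337 genes tested), the set labelled DMSO 1 to 8 differed from SR1848_NR5A2OE 9 to 40 in 12 genes (0.0621%; 1327 at an unadjusted p under 0.05) and from DMSO 9 and 10 in 4619 (23.9%). The set labelled SR1848_NR5A2OE 1 to 8 differed from SR1848_NR5A2OE 9 to 40 in 11378 genes (58.8%) and from DMSO 9 and 10 in 0 (0%) by edgeR's quasi-likelihood test, with 778 at an unadjusted p under 0.05 and 2 when low libraries were left out. With only 2 embryos in the DMSO 9 and 10 group, a count of 0 does not show that the groups are alike. Of the 12 genes, Tgfbr1, a receptor of transforming growth factor beta, and Rab1a, a small GTPase of vesicle traffic, had counts in all 8 embryos labelled DMSO and were called higher there, at log2 fold changes of 1.82 and 2.02. The medians differed less, at 22.5 against 12.1 CPM for Tgfbr1 and 7.82 against 9.04 CPM for Rab1a, the second in the other direction. The highest embryo labelled DMSO had 286 CPM of Tgfbr1 and the highest of Rab1a was 362 CPM, against 62.4 and 64.5 CPM in SR1848_NR5A2OE 9 to 40.

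Against the embryos labelled SR1848 alone, 3340 genes (17.3%) differed in the set labelled DMSO 1 to 8 and 11000 (56.9%) in the set labelled SR1848_NR5A2OE 1 to 8. By named gene, the embryos labelled DMSO 9 and 10 were each nearer to the median of the set labelled SR1848_NR5A2OE 1 to 8 in 58 of 59 genes, the exceptions being Dusp6 and Rora. The median of SR1848_NR5A2OE 9 to 40 was nearer to that of the set labelled DMSO 1 to 8 in 57 of 59, the exceptions being Zscan4c and mt-Nd6, and so was the median of the embryos labelled SR1848 alone in 52 of 59. The 59 genes were picked for differences between these sets or in experiment 1, and they vary together. These counts are therefore a description and no test, and no such count is given over all genes. For Gins3, DMSO 9 and 10 had 219 and 251 CPM, beside 150 to 307 in the set labelled SR1848_NR5A2OE 1 to 8.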

How the data were processed

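Values are estimated counts per transcript that the authors deposited as 1 table with a column per embryo. The submitters' processing notes list bcl2fastq, Trim Galore 0.6.2, kallisto 0.46.1, R 3.5.1, DESeq2 1.32.0 and the builds mm10 and hg19; these sources do not say what hg19 was used for. Column prefixes were matched to labels by name for DMSO and, for the other groups, by the set of replicate numbers in each experiment.

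Estimated counts were summed by gene (GENCODE M21, else the gene names of the authors' deposited table; 119358 entries, 36176 genes), rounded, and tested with edgeR 4.0.16 (quasi-likelihood, TMM, filterByExpr, Benjamini-Hochberg 0.05) in R 4.3.3. GFP and Nr5a2 chose the libraries. GFP was left out of the tests. Nr5a2 stayed in the fits and their adjustment but was left out of every count of calls and of the named genes. CPM is scaled to 1000000 counts. Fold changes are log2. Each SE is derived from the test, as the absolute log2 fold change divided by the square root of the quasi-likelihood F. The test was tried on simulated counts.

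Members and gene lists (19) were chosen with earlier results of these data known. Named genes are the 12 largest changes in each direction in the 16 among called genes averaging 3 log2 CPM or more, without predicted genes, the 4 largest in each direction in experiment 1, and the 2 lowest p per list; 1 gene that the rule picks is not reported here. Alternatives were DESeq2 1.42.0, other scalings and filters, a replicate block and leaving out libraries.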

Additional observations from a re-analysis of the deposited data

Results flagged for a closer look

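The label contrast differed between the 16 libraries and experiment 1 in 10582 genes by the edgeR interaction test. For named genes the contrast in the 16 minus that in experiment 1, in log2 units, is given here as values. Among genes highest with the label SR1848_NR5A2OE in the 16 it was 13.8 for Gins3, 13.8 for Timd2, 12.0 for Sapcd2, 12.0 for Stmn3, 11.9 for Btbd18, 10.2 for Them4, 10.7 for Tmem185b, 11.2 for Kif3c, 10.8 for Riox2, 10.3 for Tsr2, 11.6 for Npl and 10.4 for Trip13. Among the lowest it was -27.4 for Hist2h2be, a value that rests on 2 counts in the set labelled SR1848_NR5A2OE and on the prior count, -10.3 for Hes6, -8.56 for Klhl41, -10.5 for Msx1, -9.04 for Samd10, -9.55 for Zscan4c, -8.56 for Nr2e1, -8.81 for Hes1, -8.29 for Slamf1, -8.45 for Car9, -8.19 for Stat4, -7.36 for Pkd2l2 and -8.64 for Dusp6.

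Among early embryo and oocyte genes and receptors it was 8.95 for Trim43b, 6.93 for Dppa2, -4.19 for Oog2, -3.48 for Oog4, -5.15 for Pou5f1, -5.20 for Rora and 8.49 for Rarg. Among genes of ribosomes, protein turnover and splicing it was 7.43 for Emg1, 5.53 for Imp4, 5.97 for Rpl37a, 6.10 for Rpl30, 5.03 for Psma3, 5.03 for Psmb2, 7.48 for Lsm8 and 6.25 for Srsf6. Among metabolic and stress genes it was 4.72 for Paics, -3.57 for Mthfd2, 5.90 for Dnajb11, -3.66 for Hsf1, -4.20 for Rrm2b, 6.46 for Ei24, -2.98 for Mx1 and 4.46 for Stat2. Among cell cycle, histone and respiratory genes it was -6.14 for Wee2, -6.43 for Hist1h4c, 8.68 for Cox7c, 3.64 for Ndufa2, -2.25 for mt-Co3 and -2.47 for mt-Nd6. Among markers of other cells it was 4.76 for Amhr2, -3.62 for Odf2, 5.45 for Ldhc, -8.07 for Hba-a2 and 3.82 for Epcam.

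In 17 of 170 groups of values tested, 1 embryo lay apart from the rest of its set, where chance alone gives about 1 in 20. The groups are measures of the same 2 sets of embryos and are not independent, so this share is a description only. Of the libraries labelled DMSO, embryo 4 had the highest shares of spliceosome (0.46%), purine, serine and folate (0.557%) and interferon genes (0.0546%) and the highest Psmb2 (6.15 log2 CPM). Embryo 1 had 18023 genes detected, 9.78% of counts in maternal transcripts, 3.51 log2 CPM of Hes1 and 1.89 of Hba-a2, and embryo 3 had 0.77 log2 CPM of Klhl41. Of the libraries labelled SR1848_NR5A2OE, embryo 1 had 7828827 counts and 5.76 log2 CPM of Rarg, and embryo 3 had 1.12% of counts in purine, serine and folate genes and 0.861% in heat shock genes. Embryo 8 had 9.43 log2 CPM of Timd2, embryo 6 had 9.15 of Btbd18, embryo 5 had -2.22 of Hes6 and embryo 2 had 3.97 of Cox7c.

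In data outside the gene comparisons, entries named for the B1 and B2 repeats stood above the highest DMSO embryo of experiment 1 (14.7 CPM of B1 and 20.6 CPM of B2): the median was 60.9 CPM of B2 and 30.6 CPM of B1 in the libraries labelled DMSO, and 17.1 CPM of B1 in those labelled SR1848_NR5A2OE. The 20.6 CPM was in embryo 16, a low library of 1644926 counts. Without low libraries the highest B2 of that group was 13.8 CPM.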

How the results depend on the processing

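The count of genes called in the 16 was 7840 and stayed within 1.5 times that under each alternative scaling, filter and test run, and it was 7607 to 8283 when each library was left out in turn. Of 59 named genes, none reversed under the alternatives run. Zscan4c lost its call under the replicate block (log2 -2.98), Amhr2 with the spread of all groups of experiment 2 (2.11), and Mthfd2 (-0.29), Mx1 (-0.18), mt-Co3 (-0.09) and mt-Nd6 (-0.02) with the maternal list held level; the cause was not tested. The calls of experiment 1 went from 8397 to 14340 without a filter, which tests more genes. The share of its calls with the opposite sign in the 16 was 99.5% at a mean of at least 3 log2 CPM, 99.0% with library totals and 98.4% with the maternal list held level, where Pearson r was -0.843. The set labelled SR1848_NR5A2OE 1 to 8 differed from DMSO 9 and 10 in 2 genes without low libraries (0 with them), an alternative chosen after seeing the data, as was leaving out embryos labelled DMSO 2 and 4 (8665 calls). The fit with the replicate number as a block called 7513 genes in the 16 and 7223 in experiment 1. Deviations of embryos with the same number had correlations of -0.0410 to 0.0544, and no embryo was closest to its own number, so the numbers were not taken to pair embryos. Depth of 2803691 to 7828827 counts limits statements on genes of a few CPM.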

Other observations

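Counts assigned to the consensus B2 and B1 short interspersed repeats, which no comparison above uses, are given as values. B2 had 21.9 to 131 CPM (median 60.9) in the 8 libraries labelled DMSO and 7.97 to 22.0 CPM (median 11.6) in the 8 labelled SR1848_NR5A2OE. Elsewhere the median of B2 was 7.84 CPM in DMSO and 27.7 CPM in SR1848_NR5A2OE embryos of experiment 1, 48.0 CPM in SR1848_NR5A2OE 9 to 40 and 6.46 CPM in SR1848 embryos of experiment 2. B1 had 13.3 to 46.1 CPM (median 30.6) with the label DMSO and 7.91 to 21.6 CPM (median 17.1) with the label SR1848_NR5A2OE. Its median was 6.76 CPM in DMSO and 18.0 CPM in SR1848_NR5A2OE embryos of experiment 1. In experiment 2 it was 17.6 CPM in SR1848_NR5A2OE 9 to 40 and 7.85 CPM in SR1848 embryos, and DMSO 9 and 10 had 6.55 and 8.09 CPM. For B1 the set labelled SR1848_NR5A2OE 1 to 8 was thus near the other groups of its own label.

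The oocyte gene Gdf9, a growth factor of the follicle, had 200 to 306 CPM (median 280) with the label DMSO and 84.1 to 145 (median 132) with the label SR1848_NR5A2OE. Oosp1, another oocyte-secreted protein gene, had nearly equal medians of 450 and 419 CPM, and Zp3, of the egg coat, had 6.24 to 81.6 CPM (median 23.1) against 65.7 to 112 (median 82.0).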
